A study of Mus musculus with 3 samples.

Results

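The promoters of the Olfr genes, which encode the odorant receptors of the mouse, were examined in ATAC-seq peak lists from islet cells. Every autosomal protein-coding gene whose symbol is Olfr followed by a digit was taken from the GENCODE annotation of mm9. The rule found 1106 Olfr genes of 21410 autosomal protein-coding genes, with 1225 annotated transcript starts on 17 chromosomes, and left out 7 Olfr genes of chromosome X. A gene was called when a peak overlapped the window from 1000 bp before to 100 bp after any of its starts by at least 1 bp. Neighbouring members were joined into 32 clusters (at least 5 members, gaps of up to 500 kb), which held 1067 of the members in 29.3 Mb.

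In ATAC-seq, a transposase inserts sequencing adapters into DNA that is open to it, and peaks are stretches with many insertions. There were 3 libraries of cells dissociated from isolated islets of mice whose strain is given as C5LBl6: wild type (WT), Taf4 KO at 1 week and Taf4 KO at 5 weeks, the times being counted from the loss of Taf4, which belongs to the TFIID complex of general transcription. According to the study, floxed Taf4 was deleted by a tamoxifen-inducible Cre under an insulin promoter, so only beta cells were targeted and the other islet cells kept the gene. The labels give no age, sex or number of animals per library. Each group had 1 library, so the variation among animals is unknown, no p-value was computed, and all intervals are Wilson 95% intervals. The upper limit given beside a count of 0 is instead 3 counts of the total. Both cover counting error only.

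Odorant receptors are G protein-coupled receptors of the olfactory epithelium, where each sensory neuron expresses a single receptor gene from a single allele and keeps the rest silent in heterochromatin. The genes stand in large, AT-rich clusters, most often with an intronless coding exon behind one or more noncoding leader exons, and their promoters lack CpG islands. In most other tissues they serve as examples of silent genes, although some members are described outside the nose. Class I receptors lie together around the beta-globin locus, and all others are class II.

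Depth differed between the lists. The background read depth recovered from fold and p was 1.76 times the WT value at 1 week and 2.57 times at 5 weeks, and the lists held 60898, 150354 and 151725 peaks. Promoter peaks were found at 6, 8 and 9 of 9 autosomal islet markers in the WT, 1 week and 5 week lists. Markers of other cells were called as follows in the same order of lists: endothelial 1, 2 and 3 of 4, immune 0, 1 and 1 of 4, acinar 0, 0 and 1 of 4, duct 1, 1 and 2 of 3, and olfactory neuron 3, 3 and 3 of 7. Among the last, Gnal, Adcy3 and Lhx2 had a promoter peak in every list, and Omp, Cnga4, Rtp1 and Stoml3 in none. The part of other cell types in the results was not tested, and depth was addressed by stricter treatments of the lists.

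Olfr windows stood apart from other promoters in base composition. The median window held 4 CpG dinucleotides, against 35 in the other genes, and had a GC content of 35.3% against 50.1%. The median GC content of the 1 Mb around a member was 39.2%, against 44.5%. No Olfr window overlapped the promoter window of another protein-coding gene. Of the members, 923 had a single exon, 473 had a start upstream of the coding start, and the remaining 633 were annotated from the coding start alone, so that their true start may lie further upstream. Since only reads with a unique place were kept by the authors, near-identical members could lose reads. The median window had 96.7% of its 32-base words unique in the genome, so most windows could be read.

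The sequences at the middle of the peaks show what kind of DNA was called. Printed are 300 bases centred on the peak of each of the 5 members called in WT, then of the 3 strongest members of the 5 week list that WT lacked, read on the strand of the gene from mm9 with CpG dinucleotides in capitals.
Olfr1329, chr4:118590716-118591015, minus strand: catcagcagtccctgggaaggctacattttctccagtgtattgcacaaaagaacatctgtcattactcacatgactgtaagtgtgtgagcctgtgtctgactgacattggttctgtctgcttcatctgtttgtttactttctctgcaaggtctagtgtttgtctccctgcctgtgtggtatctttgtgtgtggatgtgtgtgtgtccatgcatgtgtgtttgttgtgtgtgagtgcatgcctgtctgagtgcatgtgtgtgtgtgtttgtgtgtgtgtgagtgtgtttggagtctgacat
Olfr1412, chr1:94484687-94484986, plus strand: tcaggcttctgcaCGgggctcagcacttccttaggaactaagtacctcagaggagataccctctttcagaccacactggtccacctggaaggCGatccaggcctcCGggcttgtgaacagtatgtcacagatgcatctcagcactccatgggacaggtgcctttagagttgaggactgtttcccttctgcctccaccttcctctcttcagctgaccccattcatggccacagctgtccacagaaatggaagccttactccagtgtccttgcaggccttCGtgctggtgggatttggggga
Olfr1333, chr4:118503458-118503757, minus strand: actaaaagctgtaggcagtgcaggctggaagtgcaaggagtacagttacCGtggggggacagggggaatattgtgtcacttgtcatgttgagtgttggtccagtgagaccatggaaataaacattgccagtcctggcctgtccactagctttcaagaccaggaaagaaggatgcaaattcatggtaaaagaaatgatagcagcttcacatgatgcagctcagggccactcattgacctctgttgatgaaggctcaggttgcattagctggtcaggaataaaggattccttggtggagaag
Olfr222, chr11:59385111-59385410, minus strand: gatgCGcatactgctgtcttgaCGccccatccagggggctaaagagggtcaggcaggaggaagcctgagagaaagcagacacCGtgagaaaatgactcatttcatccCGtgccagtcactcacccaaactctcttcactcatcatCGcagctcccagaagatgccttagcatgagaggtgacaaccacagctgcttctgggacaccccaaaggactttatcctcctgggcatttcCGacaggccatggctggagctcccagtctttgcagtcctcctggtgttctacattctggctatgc
Olfr12, chr1:94516680-94516979, plus strand: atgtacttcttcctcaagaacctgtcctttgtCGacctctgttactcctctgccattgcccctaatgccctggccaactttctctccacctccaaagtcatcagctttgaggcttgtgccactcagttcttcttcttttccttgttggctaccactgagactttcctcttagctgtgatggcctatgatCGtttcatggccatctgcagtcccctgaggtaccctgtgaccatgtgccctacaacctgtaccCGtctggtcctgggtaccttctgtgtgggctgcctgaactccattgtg
Olfr1331, chr4:118540350-118540649, plus strand: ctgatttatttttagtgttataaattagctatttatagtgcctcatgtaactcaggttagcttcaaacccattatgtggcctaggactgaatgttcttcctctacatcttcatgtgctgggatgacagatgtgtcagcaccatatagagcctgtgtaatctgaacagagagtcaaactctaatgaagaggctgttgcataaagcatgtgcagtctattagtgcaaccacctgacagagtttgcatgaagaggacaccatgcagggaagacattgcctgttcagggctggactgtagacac
Olfr95, chr17:37348372-37348671, minus strand: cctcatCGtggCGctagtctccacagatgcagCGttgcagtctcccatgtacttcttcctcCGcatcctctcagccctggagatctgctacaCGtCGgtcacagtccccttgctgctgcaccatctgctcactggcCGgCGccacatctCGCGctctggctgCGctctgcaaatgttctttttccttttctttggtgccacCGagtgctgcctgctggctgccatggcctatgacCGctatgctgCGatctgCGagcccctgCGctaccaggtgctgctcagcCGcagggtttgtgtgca
Olfr541, chr7:147889833-147890132, plus strand: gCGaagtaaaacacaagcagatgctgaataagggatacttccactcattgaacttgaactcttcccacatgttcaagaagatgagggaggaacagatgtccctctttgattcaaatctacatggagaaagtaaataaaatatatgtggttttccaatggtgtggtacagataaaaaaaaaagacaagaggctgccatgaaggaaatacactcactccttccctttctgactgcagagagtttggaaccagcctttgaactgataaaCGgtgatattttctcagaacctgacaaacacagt
The WT stretch at Olfr1329 held 0 CpG and that at Olfr1412 held 4, and all 5 WT stretches had a GC content of 45.7% or more. The stretch at Olfr12 lies inside the coding exon, and that at Olfr95, with 17 CpG and 60.0% GC, also lies in the coding exon. The stretch at Olfr1331 had no CpG.

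In WT islets, Olfr promoters were almost without peaks. Of 1106 members, 5 were called in WT, or 0.452% (0.193 to 1.05), against 59.8% of all genes. At 1 week 136 were called, or 12.3% (10.5 to 14.4), against 56.0% of all genes, and at 5 weeks 122, or 11.0% (9.32 to 13.01), against 66.6%. Among members without a WT peak, 135 had one at 1 week, or 12.3%, against 12.6% of all genes without a WT peak. At 5 weeks it was 119, or 10.8%, against 19.7%. Of the 5 members called in WT, 4 were uncalled at 1 week, where 14.8% of all genes with a WT peak had lost it, and 2 had none at 5 weeks, against 1.82%. The share of members newly called was thus near that of all genes without a WT peak at 1 week and below it at 5 weeks. A gene could be called at any start, and the 20304 other genes had 42793 starts, against 1225 for the 1106 members. These shares were not matched for the number of starts.

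**Figure D1:**
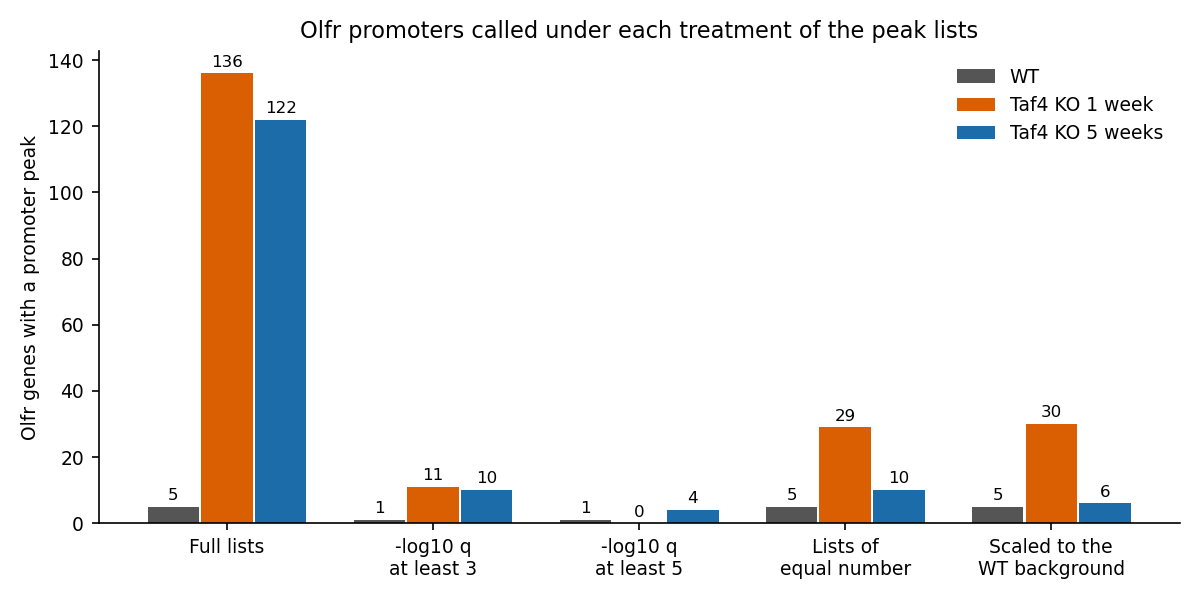
Number of the 1106 Olfr genes with a promoter peak (vertical axis) in the WT, 1 week and 5 week lists under each treatment of the lists; bars carry the counts. The 136 and 122 genes of the full Taf4 KO lists come down to 30 and 6 when the lists are scaled to the WT background.

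These calls were weak, and few were left in stricter lists. In the WT, 1 week and 5 week lists the median −log10 q of members' peaks was 1.64, 1.84 and 1.72, whereas the peaks of other promoters had 11.1, 5.93 and 11.9. Their median fold over the local background was 2.68, 2.31 and 2.08. Requiring a −log10 q of 3 or more, 1 member was left in WT, 11 at 1 week and 10 at 5 weeks, against 54.5%, 45.3% and 59.8% of all genes. At 5 or more it was 1, 0 and 4, against 49.4%, 34.0% and 55.2%. A count of 0 among 1106 allows a share of up to 0.271%. In lists cut to the WT number of peaks, 29 members were called at 1 week and 10 at 5 weeks, against 49.2% and 59.8%. After scaling to the WT background they were 30 and 6, against 49.5% and 57.9%. The 5 week count thus came close to the 5 of WT and the 1 week count did not, but the members differed. After scaling 1 member was called in all 3 lists and 4 in WT alone, against 10043 and 668 of 20304 other genes. The scaled counts depended on the threshold. At a stricter one chosen after the data were seen, the −log10 p below which 10% of WT peaks lie, 4 members were called in WT, 7 at 1 week and 4 at 5 weeks, against 58.7%, 43.6% and 54.7% of all genes. The plot of called members by list treatment shows this descent.

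Widening the window raised the count in every list. From 5000 bp before to 100 bp after the start, 17 members were called in WT, 393 at 1 week and 302 at 5 weeks, against 64.7%, 63.7% and 74.3% of all genes. From 250 bp before to 50 bp after, they were 3, 84 and 78, against 57.7%, 53.3% and 64.0%. Since 53.3% to 64.0% of all genes were already called in the narrow window, their counts had less room to rise. The growth of the members' counts can therefore not be set against theirs.

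The Taf4 KO lists called partly different members. Over the 3 lists, 214 members were called at least once and 892 never. A peak at 1 week alone was found at 90 members, at 5 weeks alone at 74 and at both times without WT at 45. The same patterns were found at 270, 892 and 683 of 20304 other genes. In the other genes a peak at both times was thus more frequent than at 1 week alone, and in members it was less frequent. A peak at 5 weeks alone was more frequent than at both times in members and other genes alike. The 46 members called at both times, Olfr1329 included, made up 33.8% of the 1 week and 37.7% of the 5 week members, and at 41 of them the peaks of both lists overlapped. Of the 90 called at 1 week alone, 21 had that peak touched beyond the window by a 5 week peak. Of the 74 called at 5 weeks alone, 26 had theirs touched by a 1 week peak. The remaining 69 and 48 members had a peak that the other Taf4 KO list lacked. Of other genes, 11856 were called at 1 week and 14132 at 5 weeks. Among them 10886 had a peak in all 3 lists and 683 at both times without WT. Most other genes called at either time were thus called at both, unlike members. Counts of touched peaks were not computed for other genes, so those counts have no background.

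Taken over all GC contents, Olfr windows were called about as often as other DNA of their clusters. Counted by window, 0.408% (0.174 to 0.952) of 1225 Olfr windows overlapped a WT peak, 11.5% (9.84 to 13.4) a 1 week peak and 10.7% (9.08 to 12.5) a 5 week peak. The clusters were cut into 24035 tiles of the same length that lie outside promoter windows but may hold coding exons. Of these tiles 0.649% (0.555 to 0.759), 13.5% (13.03 to 13.9) and 11.0% (10.6 to 11.4) overlapped a peak. After scaling to the WT background the windows gave 2.53% and 0.571% at 1 and 5 weeks, and the tiles 3.17% and 0.686%. In every list and in both treatments the windows lay below the tiles, with overlapping intervals.

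**Figure D2:**
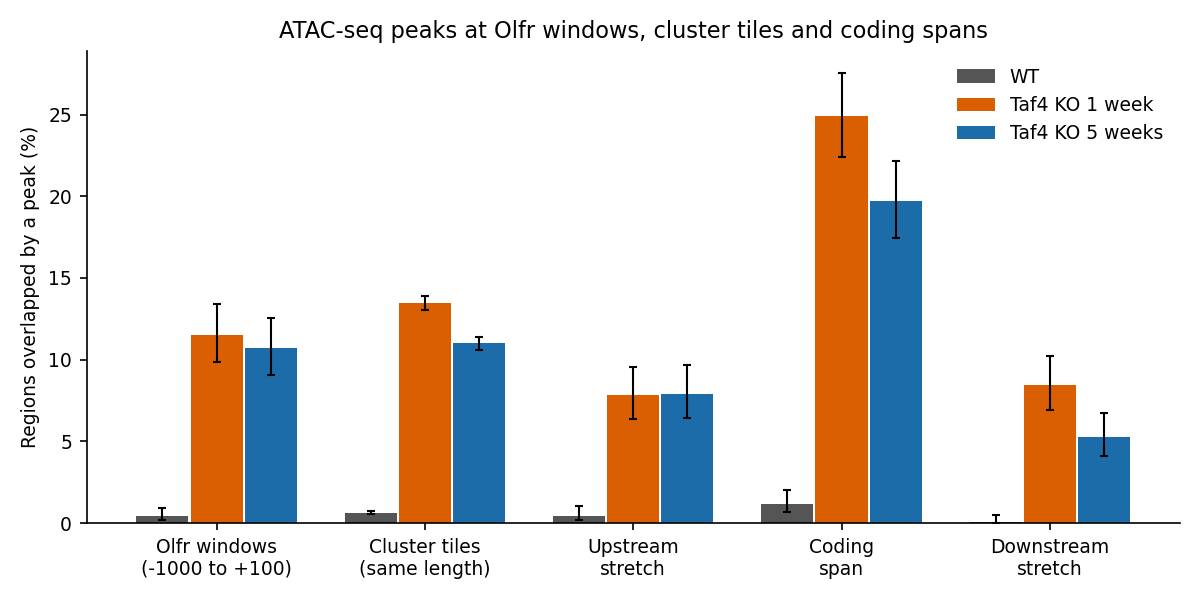
Share of regions overlapped by a peak (vertical axis, %) for Olfr windows, cluster tiles, coding spans and the stretches of the same length before and after them, in each list; bars are shares and whiskers Wilson 95% intervals. Coding spans reach 24.9% at 1 week and 19.7% at 5 weeks, above every other kind of region shown.

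Within the genes, peaks lay more often over the coding exon than before the start. Coverage was read every 500 bp around the 1225 starts. It was highest 500 bp downstream of the start in each list, at 0.544% of starts in WT, 15.04% at 1 week and 11.7% at 5 weeks, while the mean beyond 5 kb was 0.255%, 5.49% and 4.44%. Just upstream it was low: 2.005% at −500 bp at 1 week, the lowest point of that list. At 5 weeks the lowest point was 1.56%, 1500 bp downstream. The GC content followed the same course, with a mean of 35.1% at −500 bp, 44.1% at 500 bp and 35.3% at 1500 bp. Of the called members, the peak covered the start itself in 2 of 5 for WT, 58 of 136 for 1 week and 59 of 122 for 5 weeks. The median peak midpoint lay 185 bp downstream of the start at 1 week and 153 bp downstream at 5 weeks.

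**Figure D3:**
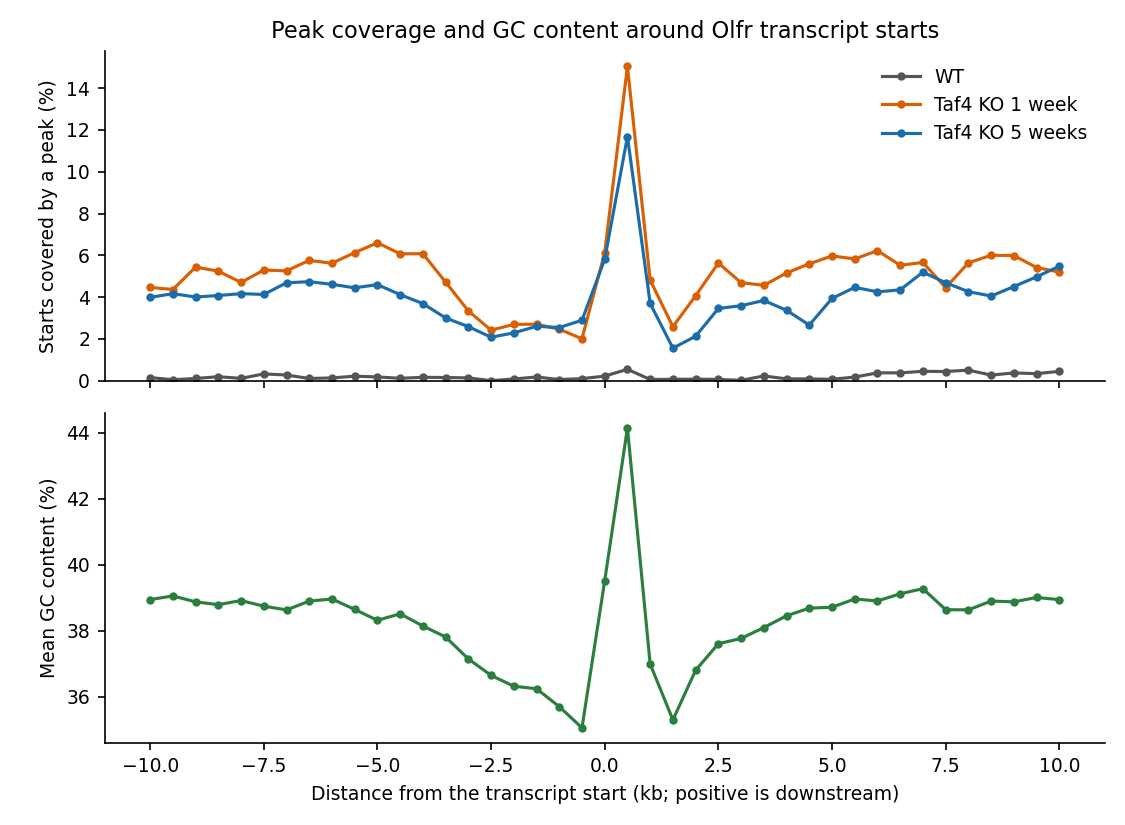
Upper panel: percent of 1225 Olfr transcript starts covered by a peak against the distance from the start in kb, for each list; lower panel: mean GC content in 500 bp steps over the same positions. Coverage in both Taf4 KO lists and GC content each have their maximum 500 bp downstream, at 15.04%, 11.7% and 44.1%.

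Counting the coding span directly, a comparison chosen after the profile was seen, gave the largest shares. For members with a coding span no longer than a window (median 939 bp), 13 spans had a peak in WT, or 1.18% (0.691 to 2.01), 274 at 1 week, or 24.9% (22.4 to 27.5), and 217 at 5 weeks, or 19.7% (17.5 to 22.2). Stretches of the same length just upstream had 0.454%, 7.81% and 7.90%, and those just downstream 0.0908%, 8.45% and 5.27%. The coding spans had a median GC content of 43.9%, against 34.2% upstream and 34.1% downstream. After scaling to the WT background the spans had 4.81% at 1 week and 0.636% at 5 weeks, and the upstream stretches 1.63% and 0.454%. The intervals of spans and upstream stretches did not overlap at 1 week (3.70 to 6.24 and 1.04 to 2.57) but did at 5 weeks (0.308 to 1.31 and 0.194 to 1.06).

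Set beside tiles of like GC content, the coding spans were less apart. Tiles may hold parts of the same coding exons, and they have the length of a window, which no coding span exceeds. The comparison therefore cannot show how far coding spans differ from other DNA of like GC content. Among regions of 45% GC or more, a WT peak was found in 3.09% of 2684 tiles and 2.79% of 466 coding spans. At 1 week these shares were 25.1% and 30.3%, and at 5 weeks 28.7% and 32.2%. All 13 coding spans with a WT peak were in this range. Between 40 and 45% GC, the tiles had 18.4% and the 507 coding spans 23.5% at 1 week, while at 5 weeks the tiles had 16.2% and the spans 12.4%. Under 35% GC, where 582 of the 1225 windows fall, 0 windows had a WT peak, which allows up to 0.515%, 7.73% had one at 1 week and 2.58% at 5 weeks, and the tiles gave 0.0789%, 4.22% and 1.85%. At like GC content the windows were thus not always level with the tiles. At 5 weeks 13.6% (10.5 to 17.3) of windows between 35 and 40% GC had a peak, against 6.89% (6.39 to 7.42) of tiles, and between 40 and 45% GC it was 27.3% (21.2 to 34.4) against 16.2% (15.4 to 17.1). At 1 week the windows exceeded the tiles beyond the intervals under 35% GC (5.83 to 10.2 against 3.70 to 4.81), overlapped with them between 35 and 45%, and at 45% or more had 9.59% (4.72 to 18.5), below the tiles. The last 100 bases of a window reach into the coding exon where the gene is annotated from its coding start. The part of GC content in these shares was not tested beyond this grouping.

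**Figure D4:**
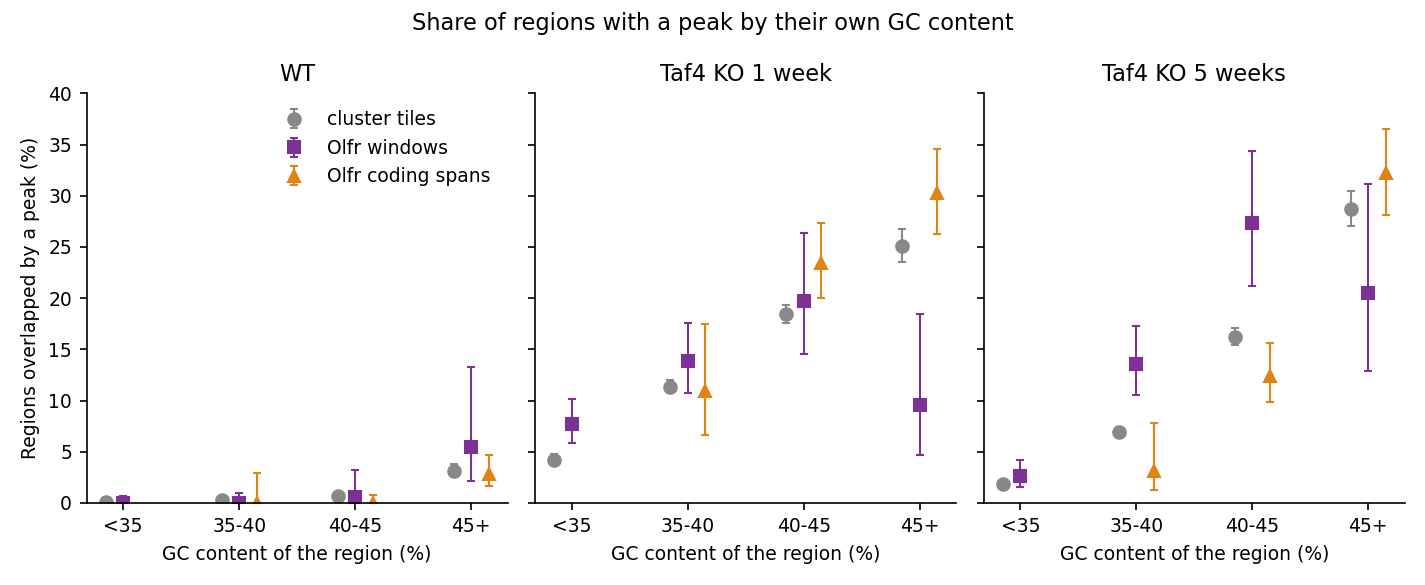
Share of regions overlapped by a peak (vertical axis, %) by the region's own GC content, for cluster tiles, Olfr windows and Olfr coding spans, 1 panel per list; whiskers are Wilson 95% intervals. In the tiles the share climbs with GC content in every list, from 4.22% to 25.1% at 1 week.

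All autosomal genes were also ranked by the GC content of the surrounding 1 Mb and cut into 5 groups of equal size. In the least GC-rich group, 0 of 858 members were called in WT, which allows a share of up to 0.350%, 112 at 1 week and 90 at 5 weeks. Of the other genes of that group 42.8%, 54.8% and 55.3% were called. Among the 65 members of the group ranked 4 it was 2, 2 and 7, beside 70.1%, 58.9% and 73.7% of its other genes. Among the 10 members of the most GC-rich group it was 3, 0 and 2, beside 71.3%, 51.1% and 76.0%. All 5 members called in WT therefore lay in the 2 most GC-rich groups, and their median 1 Mb GC content was 47.9%. Window GC content had a median of 50.1% in the members called in WT, 37.3% in those called at 1 week and 39.2% at 5 weeks, against 35.3% over all members. In the full lists, 13.5% of the 557 members at or above the median uniqueness and 11.1% of the 549 below it were called at 1 week, and 11.1% and 10.9% at 5 weeks. In stricter lists more of the called members were below the median. At 5 weeks, 1 member at or above it and 9 below it had a −log10 q of 3 or more, and after scaling the numbers were 0 and 6. At 1 week they were 4 and 7 for this q, and 13 and 17 after scaling. The part of uniqueness in these calls was not tested.

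Other CpG-poor genes in GC-poor DNA were called more often than all members together. The number of transcript starts per gene was not matched between these sets. The other genes with at most 8 CpG in the window and in the least GC-rich group, 1214 in all, had 2.97% (2.15 to 4.08), 16.6% (14.7 to 18.8) and 15.2% (13.2 to 17.3) called in the 3 lists. Members of that GC group, with any number of CpG, had 0 of 858 called in WT. At 1 week 13.1% (11.0 to 15.5) of them were called and at 5 weeks 10.5% (8.61 to 12.7). The intervals of both sets overlapped at 1 week alone. After scaling the other genes had 6.43% at 1 week and 3.54% at 5 weeks. All members had 2.71% and 0.542%, and the members of that GC group 2.80% and 0.233%. Vomeronasal receptors, which detect pheromones, had fewer calls: of 203 Vmn1r genes 0, 13 and 10, and of 118 Vmn2r genes 0, 6 and 2. A count of 0 allows up to 1.48% and 2.54%. Their windows were less unique, with medians of 77.3% and 71.1%, and the part of this was not tested. Of 35 Tas2r bitter taste receptor genes 1, 6 and 6 were called, and of 15 Taar trace amine receptor genes 1, 2 and 2. The 128 other protein-coding genes that lie inside Olfr clusters were called far more often, 47 in WT, 56 at 1 week and 67 at 5 weeks, or 36.7%, 43.8% and 52.3%.

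Class I receptors were called more often than the other members together in both Taf4 KO lists, but so were some other clusters. Of the 129 members of the chromosome 7 cluster that also holds Hbb-b1, 0 were called in WT, which allows up to 2.33%, 32 at 1 week, or 24.8% (18.2 to 32.9), and 38 at 5 weeks, or 29.5% (22.3 to 37.8). Of the 977 members elsewhere it was 5, 104 and 84, or 0.512% (0.219 to 1.19), 10.6% (8.86 to 12.7) and 8.60% (6.998 to 10.5). After scaling, 12 class I members were called at 1 week, or 9.30% (5.40 to 15.6), and 18 others, or 1.84% (1.17 to 2.89). At 5 weeks it was 2 and 4, or 1.55% (0.426 to 5.48) and 0.409% (0.159 to 1.05). Some class II clusters, named here after their values were seen, had as large a share of members called in 1 or both Taf4 KO lists. Of 25 members of a chromosome 7 cluster 12 were called at 1 week and 8 at 5 weeks, of 28 in a chromosome 2 cluster 9 and 6, and of 14 in a chromosome 1 cluster 4 and 7. An annotated leader made no such difference, with 12.3% of members with a leader and 12.3% of those without called at 1 week, and 12.1% and 10.3% at 5 weeks.

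The promoters of 3 members of class I, the first in the order of the rule for named genes, are printed from 250 bases before to 49 after the outermost start, on the strand of the gene in mm9. The strongest peaks of Olfr631 did not lie in its printed stretch but near an inner start. They ran from 111077396 to 111078740 at 1 week and from 111077375 to 111078213 at 5 weeks. Capitals mark TAATTA, the core bound by homeodomain proteins such as Lhx2, CCCNNGGG, the core bound by Ebf proteins, and the TATA box TATAAA, each searched on both strands.
Olfr601, chr7:110507678-110507977, minus strand: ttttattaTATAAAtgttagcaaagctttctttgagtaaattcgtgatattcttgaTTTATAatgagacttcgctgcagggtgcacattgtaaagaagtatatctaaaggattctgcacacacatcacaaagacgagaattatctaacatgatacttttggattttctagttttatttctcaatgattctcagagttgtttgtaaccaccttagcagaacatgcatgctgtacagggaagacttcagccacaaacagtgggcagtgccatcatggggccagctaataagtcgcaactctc
Olfr667, chr7:112065759-112066058, minus strand: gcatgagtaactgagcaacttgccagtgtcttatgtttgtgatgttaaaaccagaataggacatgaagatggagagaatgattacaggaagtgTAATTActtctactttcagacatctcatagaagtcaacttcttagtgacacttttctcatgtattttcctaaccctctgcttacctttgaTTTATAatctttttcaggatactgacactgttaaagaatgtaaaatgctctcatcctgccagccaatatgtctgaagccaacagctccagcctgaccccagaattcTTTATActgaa
Olfr631, chr7:111063326-111063625, plus strand: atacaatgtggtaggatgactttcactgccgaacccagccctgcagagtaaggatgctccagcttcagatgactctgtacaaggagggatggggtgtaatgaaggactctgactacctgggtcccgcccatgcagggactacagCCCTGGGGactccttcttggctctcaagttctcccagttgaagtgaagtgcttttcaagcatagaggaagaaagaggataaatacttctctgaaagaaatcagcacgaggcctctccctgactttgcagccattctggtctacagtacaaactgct
TAATTA, found in Olfr667, was present in 17.96% of the 1225 Olfr promoters of this length, in 3.80% of the promoters of other genes and in 12.04% of stretches of 300 bases at the middle of cluster tiles. TATAAA was present in 39.8%, 10.6% and 33.3%. CCCNNGGG, found in Olfr631, was present in 2.86%, 16.2% and 2.904%. Of 216 members with TAATTA in a promoter, 0, 16 and 18 were called in the 3 lists, and of 890 without it 5, 120 and 104. For TATAAA, 464 members with it had 0, 57 and 35 calls and 642 without it 5, 79 and 87. In percent, called members with and without TATAAA were 12.3 and 12.3 at 1 week and 7.54 and 13.6 at 5 weeks. TAATTA and TATAAA hold no G or C, so they cannot be told apart from GC content here.

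Only Olfr1329 was called in all 3 lists. This minus-strand gene of chromosome 4 spans 118589129 to 118590070 and is annotated from its coding start. Its peak had a −log10 q of 8.97 and a 4.73-fold enrichment in WT, 4.71 and 3.06-fold at 1 week, and 7.62 and 3.07-fold at 5 weeks. The WT peak ran from 118590607 to 118591124, its middle at −796 bp from the start, and the peaks of no list reached the start. This was the strongest WT and 1 week peak at any member.

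The other 4 members called in WT had peaks near the lowest levels of that list. Olfr1412 on chromosome 1 had a WT peak over its start with a −log10 q of 1.92, no 1 week peak, and a 5 week peak of 2.33, also over the start. Olfr1333, in the same chromosome 4 cluster as Olfr1329, had 1.64 in WT and 2.46 at 5 weeks, with none at 1 week. Olfr222 on chromosome 11 and Olfr12 on chromosome 1 were called in WT alone, at 1.61 and 1.56.

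Among members called at 1 and 5 weeks but not in WT, a pair reached strong levels. Olfr1331, a further gene of the chromosome 4 cluster, had a −log10 q of 3.55 at 1 week and 8.65 at 5 weeks, with the peak's middle at −898 and −889 bp. Olfr95 of the chromosome 17 cluster had 3.73 and 6.28, over the start. Both were called in 4 stricter treatments of the 5 week list (by q from 3 and from 5, by equal number and after scaling). Olfr601, a class I member, had 3.93 and 2.67, and Olfr667, also class I, had 2.49 and 3.51. The class I members Olfr631, Olfr639 and Olfr646 had 2.83, 2.42 and 2.26 at 1 week and 2.37, 2.28 and 2.44 at 5 weeks. Olfr1261 of the large chromosome 2 cluster had 2.23 and 2.97, but its peaks lay apart. They ran from 89830326 to 89830730 at 1 week and from 89833590 to 89833795 at 5 weeks. Their middles, at −867 and 172 bp, were measured from different annotated starts, the nearest to each peak.

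Members called in 1 Taf4 KO list alone were of the same kind. At 1 week alone the strongest were Olfr94, next to Olfr95, at 3.75, Olfr610 (class I) at 3.46, Olfr713 at 3.34 and Olfr996 at 3.21. At 5 weeks alone they were Olfr541 at 6.47, with a 3.04-fold enrichment over the start, and the class I members Olfr670 at 3.38, Olfr656 at 3.12 and Olfr66 at 2.92. Olfr541 alone of these 8 was called in the same 4 treatments of its list. The windows of Olfr541, Olfr1329 and Olfr1331 had 86.5%, 87.2% and 91.4% unique words, all below the median of members.

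Of 9 receptors described outside the nose, 0 were called in WT, 3 at 1 week and 0 at 5 weeks, beside 12.3% of all members at 1 week. Olfr16, known from sperm, had a −log10 q of 2.02 at 1 week alone, Olfr821 had 1.78 and Olfr2, the I7 receptor for octanal, had 1.25, both also at 1 week alone. Olfr78, an oxygen- and lactate-related receptor of the carotid body, Olfr544, a receptor for azelaic acid, and Olfr15, Olfr109, Olfr558 and Olfr1393 had no promoter peak in any list.

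The genes of odour signalling and receptor choice had calls near the level of all genes. Of 27 on autosomes, the 3 lists called 16, 15 and 18, beside the 59.8%, 56.0% and 66.6% of all genes. Gnal and Adcy3, the G protein and the cyclase of the odour cascade, and Lhx2, Ldb1, Kdm1a and Lbr, which act in receptor choice and silencing, were called in all lists. Gnb1, a G protein subunit, was called in WT and at 5 weeks, and Reep1 at 1 and 5 weeks. Cnga3, a channel subunit, was called in WT and at 1 week. The factor genes Ebf1 and Ebf4 and the G protein subunit gene Gng13 were called at 5 weeks alone, and Ebf2 in WT alone. Rtp1 and Rtp2, which carry receptors to the membrane, and Omp, Cnga4, Cngb1, Stoml3 and Emx2 were called in none.

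The clusters held more peaks per Mb in the full Taf4 KO lists than in the WT list, though not every cluster did. The 32 clusters held 156 WT peaks, or 5.33 per Mb, 2270 at 1 week, or 77.6 per Mb, and 1873 at 5 weeks, or 64.0 per Mb. The rest of the autosomes held 25.2, 57.5 and 62.7 per Mb. Covered length in the clusters was 0.347%, 5.18% and 4.33%, against 1.63%, 3.79% and 4.34% elsewhere. Bins of 1 Mb without a cluster in the least GC-rich of 5 groups held 3.75, 85.9 and 47.8 peaks per Mb. After scaling the clusters held 18.9 per Mb at 1 week and 4.72 at 5 weeks, or 3.54 and 0.885 times WT. The GC-poor bins held 24.1 and 5.11 per Mb, or 6.43 and 1.36 times WT, and the autosomes outside clusters 25.0 and 21.5, or 0.994 and 0.854 times. At 5 weeks the scaled density was thus below WT outside the clusters too. At the stricter threshold the clusters held 4.65, 6.22 and 3.21 per Mb in the WT, 1 week and 5 week lists, and the autosomes outside them 22.6, 16.1 and 17.1. Stretches of 500 kb on both sides of the clusters, with a median GC content of 43.1%, held 32.5, 57.2 and 68.1 per Mb together, and the cluster was denser than its flanks in 2 clusters by the WT list, 12 by the 1 week list and 14 by the 5 week list.

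**Figure D5:**
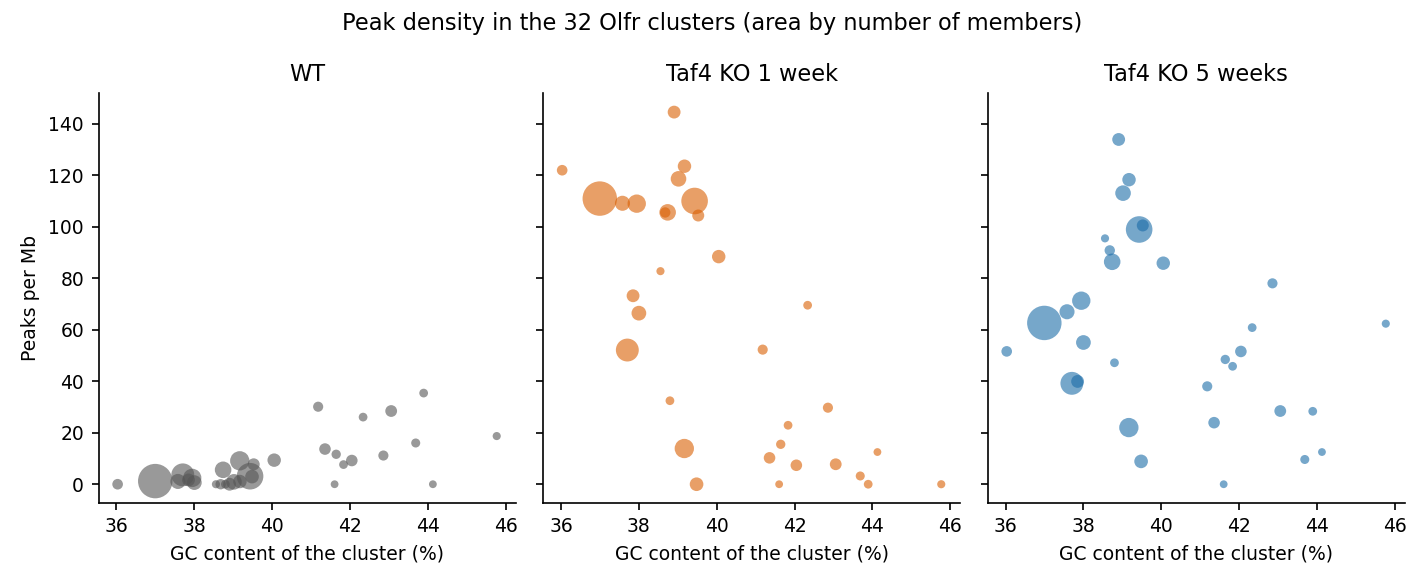
Peaks per Mb in each of the 32 Olfr clusters (vertical axis) against the cluster's GC content in %, 1 panel per list; each point is a cluster and its area grows with the number of members. The 16 clusters of lowest GC content have a median of 107 per Mb at 1 week and the 16 of highest GC content 11.4.

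Clusters differed widely among themselves. The density exceeded WT in 24 of 32 clusters at 1 week and 28 at 5 weeks, and 1 week exceeded 5 weeks in 17. In the 16 clusters of lowest GC content the lists had median densities of 1.06, 107 and 69.1 per Mb, and in the 16 of highest GC content 11.4, 11.4 and 41.9. Thus 1 week exceeded 5 weeks in 13 of the former and 4 of the latter. The largest cluster, on chromosome 2 with 221 members, held 1.21, 111 and 62.6 per Mb, and 0, 24 and 12 of its members were called. The class I cluster held 3.11, 110 and 98.9 per Mb. Clusters of like GC content could differ: the chromosome 19 cluster of 65 members, at 39.2% GC against 39.4% in the class I cluster, held 9.08, 13.9 and 22.0 per Mb, and 0, 0 and 1 members were called. A chromosome 11 cluster of 29 members, at 39.5%, held 3, 0 and 9 peaks, and no member was called in any list.

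Most cluster peaks did not lie at Olfr genes, but Olfr windows are a small part of the cluster DNA. There were up to 1225 windows beside 24035 tiles of the same length. By region, 0.408% of windows and 0.649% of tiles had a WT peak. At 1 week it was 11.5% and 13.5%, and at 5 weeks 10.7% and 11.0%. Of the 2270 peaks at 1 week, 139 overlapped an Olfr window, 56 the window of another gene, and 1878, or 82.7%, lay elsewhere in the clusters, outside Olfr gene bodies. At 5 weeks it was 121, 66 and 1540 of 1873, and in WT 4, 45 and 96 of 156. The cluster peaks of WT were comparatively strong, with a median −log10 q of 3.56, against 1.83 at 1 week and 1.86 at 5 weeks. Outside the clusters these medians were 3.71, 2.12 and 2.38. Of the cluster peaks, 56.4% in WT, 11.0% at 1 week and 14.1% at 5 weeks had a −log10 q of at least 3, against 58.4%, 31.0% and 40.6% outside. The GC content of cluster peaks had a median of 52.2%, 46.1% and 47.5%, above the 38.6% of tiles. Of the 1 week cluster peaks 45.1% were overlapped by a 5 week peak, and 54.6% of the 5 week ones by a 1 week peak. The same shares outside clusters were 56.7% and 51.7%. The strongest cluster peaks lay at promoters of other genes such as Parp2, a DNA repair enzyme, Hnrnpc, an RNA-binding protein, and Trim68, inside the gene Dtx4, or between genes, and none of the 5 strongest of any list overlapped an Olfr window.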

How the data were processed

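ATAC-seq was done on 3 libraries of islet cells, 1 per group, grouped by genotype and time as labelled. The submitters' processing notes name bcl2fastq 2.17.1.14, Bowtie 1.0.0 and MACS2 2.1.1 with mm9. Per the study's methods, the authors kept reads with a unique alignment, and broad peaks were called for each library. For each peak, the deposited lists hold a ratio (fold enrichment against local background). They also hold the deposited −log10 p and −log10 q of the peak. Read totals were not used here, and depth was taken from a local background solved from fold and p. Its first percentile was 3.66 reads in WT, 6.45 at 1 week and 9.38 at 5 weeks.

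Windows, clusters and GC content used NCBIM37, the build mm9, with GENCODE genes, and overlaps and intervals were computed in Python 3.11.15 with pandas 2.3.3, scipy 1.17.1 and statsmodels 0.14.6. For scaling, pileup and background were divided by the depth ratio and peaks kept at the lowest WT −log10 p of 2.92, leaving 62934 and 51890 peaks. Scaled counts depend on this threshold, so a stricter one, a −log10 p of 3.56, was added after the data were seen. The overlap counter and the recovered background were tested on simulated data. In these, fold and p of each peak came from a single pileup and background. Whether that holds for the deposited broad peaks was not tested, and the depth ratios and scaled counts rest on it. The members and gene lists were chosen with earlier results of these data known. Members were named by their pattern of calls, those in all 3 lists or in WT first, then the highest −log10 q within the patterns, together with a fixed list of receptors described outside the nose. Differing signalling genes and the 5 clusters with most members were also named. The smaller chromosome 11 cluster and the smaller class II clusters were named after their values were seen. Sequences were read from NCBIM37.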

Additional observations from a re-analysis of the deposited data

How the results depend on the processing

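Counts of Olfr promoters depended on how the lists were treated. Peaks were kept by −log10 q from 3 or from 5 upwards. The WT count of 5 became 1 and 1 by q, 17 in the wide window, 3 in the narrow window, 18 with the gene body added and 3 among genes with a leader. The 1 week count of 136 became 11 and 0 by q, 29 in lists of equal number, 30 after scaling, 393 and 84 in the wide and narrow windows, 318 with the gene body, 87 with an overlap of at least 100 bp and 58 among genes with a leader. The 5 week count of 122 became 10 and 4 by q, 10 in lists of equal number, 6 after scaling, 302 and 78 in the wide and narrow windows, 263 with the gene body and 57 among genes with a leader. The net difference from WT, 131 genes at 1 week and 117 at 5 weeks, became 10 and 9 for q from 3. For q from 5 it turned to -1 at 1 week and was 3 at 5 weeks. It was 24 and 5 in lists of equal number and 25 and 1 after scaling. The scaled net of 1 at 5 weeks stood for 5 members gained and 4 lost. Of other genes, 7286 were called at 1 week for q from 5. Peaks per Mb in clusters became 3.01, 8.51 and 9.05 in the WT, 1 week and 5 week lists for q from 3, and 2.19, 2.56 and 3.35 for q from 5. In lists of equal number they were 17.8 and 8.64, and after scaling 18.9 and 4.72, where 5 weeks was below WT, as it was outside the clusters. With the stricter threshold after scaling, chosen after the data were seen, the WT, 1 week and 5 week lists called 4, 7 and 4 members and held 4.65, 6.22 and 3.21 cluster peaks per Mb. Coding spans with a peak, added after the data were seen, numbered 1, 17 and 17 in the 3 lists for q from 3 and 0, 1 and 4 for q from 5. They were 48 and 15 in lists of equal number and 53 and 7 after scaling. The cause of these changes was not tested, although stricter lists and narrower regions hold fewer peaks by construction. No paired analysis was possible because each group had 1 library. For the same reason no replicate could be left out.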
